A study of Mus musculus with 8 samples.

Results

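The microRNA-181 family on these arrays is 4 names, mmu-miR-181a, mmu-miR-181b, mmu-miR-181c and mmu-miR-181d, written below without the mouse prefix. They were taken as the array entries whose names equal these exactly, and they make up 4 of the 650 names and of the 611 mouse microRNAs (miRNAs) on the array. All 4 were detected on all 8 arrays and all 4 were among the 268 mouse miRNAs tested. The samples were lungs of C57BL/6 Bom Tac dams (female mice dosed in gestation), measured on one-colour Agilent miRNA arrays. The vehicle control group (4 arrays) received nanopure water. The Printex 90 group (4 arrays) received this carbon black nanomaterial in water by instillation into the trachea, as 4 doses of 0.067 mg on days 7, 10, 15 and also 18 of gestation, a cumulative 0.268 mg. Lungs of both groups were collected at weaning, 26 to 27 days after exposure.

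A miRNA is a short RNA that pairs, mainly through its seed (bases 2 to 8), with messenger RNAs and lowers their output. The miR-181 family is known from the immune system, where miR-181a raises the sensitivity of T cell receptor signalling in developing thymocytes. In vascular endothelium miR-181b is known to dampen NF-kB signalling by repressing importin alpha 3. Members a and b are made together from each of a pair of duplicated loci, whereas c and d have a single gene each, side by side on another chromosome.

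The mature sequences are shown because their similarity bears on how far the array can tell the members apart. They are RefSeq sequences of build GRCm38.p6, 5′ to 3′, with the seed in capitals. The array's older names carry no arm suffix and were paired with the 5p arm of each hairpin.
miR-181a: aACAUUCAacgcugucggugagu
miR-181b: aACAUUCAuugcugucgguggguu
miR-181c: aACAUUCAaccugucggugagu
miR-181d: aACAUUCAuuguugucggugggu
The seed ACAUUCA was shared by all 4, and by no other of the 1674 mouse mature sequences in the table. Outside the seed the members differed at few positions, counted from 1 at the 5′ end of the first-named member. From miR-181a to miR-181b there were 3 substitutions, A9U, C10U and A21G, and 1 further base at the 3′ end. miR-181c had the sequence of miR-181a without the base at position 11. miR-181d differed from miR-181b by 1 substitution, C12U, over the 23 bases of miR-181d, and from miR-181a by 4. Sequences this close may hybridise to one another's probes. The probe sequences were not used here, so the part of each signal that comes from another member was not tested.

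The loci lie on chromosomes 1, 2 and 8. Mir181a-1 (hairpin chr1:137966455-137966541) and Mir181b-1 (chr1:137966639-137966718) lie on the plus strand, with mature 5p starts 182 bases apart. Mir181a-2 (chr2:38852735-38852810) and Mir181b-2 (chr2:38853830-38853918) lie on the plus strand with starts 1104 bases apart, and overlap the annotated genes Nr6a1 and Nr6a1os, a long non-coding RNA. Mir181c (mature 5p arm chr8:84178924-84178945) and Mir181d (hairpin chr8:84178716-84178787) lie on the minus strand with starts 165 bases apart. RefSeq lists no other gene overlapping the loci of chromosomes 1 and 8. The 2 hairpins of miR-181a are shown with both arms in capitals, since they give the same guide strand and different passenger strands, and the array measures both passengers.
Mir181a-1: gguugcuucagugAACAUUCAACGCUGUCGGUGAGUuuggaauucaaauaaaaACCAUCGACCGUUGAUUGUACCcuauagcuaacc
Mir181a-2: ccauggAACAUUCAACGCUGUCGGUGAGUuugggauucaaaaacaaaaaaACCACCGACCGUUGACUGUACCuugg

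Each array held 13000 spots for miRNAs, and 248 to 283 mouse miRNAs were detected per array, where detected means that at least 50% of the kept spots of a probe were well above background. Signals are given relative to a reference level of the same array, the 75th percentile of the 240 mouse miRNAs that all 8 arrays detected, which was 580.8 to 804.7 intensity units. Nothing in the labels states that a separate mouse stood behind every array, and p-values then measure only the spread between these samples, which may be technical. The arrays came from 1 slide and 1 scan. Controls occupied row 1 of the slide and exposed samples row 2, and row and treatment cannot be told apart. Lung markers were present, with the endothelial miR-126-3p at 40.6 ± 2.62 (SD, n = 4) in controls and the epithelial miR-200a, miR-200b, miR-200c, miR-141 and miR-429 detected on all arrays. The heart and muscle miRNAs miR-208a, miR-208b and miR-499 were detected on none. Other muscle miRNAs were present, with miR-1, miR-133a and miR-133b detected on all 8 arrays and miR-206 on 7.

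The comparison of Printex 90 with vehicle asks whether the lung levels of these miRNAs differed at weaning. None of the 4 members passed the test. The ratios of Printex 90 to vehicle were 0.935 to 0.967, and the groups overlapped for every member, where 0.746% of the 268 tested miRNAs had all Printex 90 arrays below all controls and 2.24% had groups apart in either direction. Overlap was scored before low signals were raised to a floor. Of the 2 miRNAs with all Printex 90 arrays lower, miR-322* was at that floor on all arrays, with a log2 difference of 0. With limma, 0 of 4 members passed an adjusted p of 0.05, and 0% of the 268 tested miRNAs did (15 of 268, 5.6%, had an unadjusted p under 0.05). All 4 log2 differences were below 0, as were 65.7% of all tested. The median log2 difference (Printex 90 minus vehicle) was -0.080 over the members and -0.046 over all tested, a gap of -0.034.

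miR-181a, the member known from T cell development, gave relative signals of 0.840, 0.732, 0.788 and 0.787 on vehicle control replicates 1 to 4. On Printex 90 replicates 1 to 4 it gave 0.696, 0.769, 0.767 and 0.711. All Printex 90 values were below the control median of 0.788, and 2 were below every control, but the groups overlapped because control replicate 2 was low. The means were 0.787 ± 0.0444 in controls and 0.736 ± 0.0378 after Printex 90 (SD, n = 4 each). The log2 difference was -0.097 (SE 0.054, limma adjusted p = 0.706), a ratio of 0.935 with an unadjusted 95% interval of 0.856 to 1.02.

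miR-181b, transcribed beside miR-181a at both of its loci, gave 0.211, 0.204, 0.198 and 0.205 in the controls. On the Printex 90 arrays it gave 0.181, 0.197, 0.199 and 0.189. Here 3 of 4 Printex 90 arrays were below every control, and replicate 3, at 0.1986, was above the lowest control, 0.1976. The means were 0.204 ± 0.00536 and 0.191 ± 0.00824 (SD, n = 4 each). The log2 difference was -0.096 (SE 0.038), a ratio of 0.936 with an unadjusted 95% interval of 0.879 to 0.996. Its unadjusted limma p of 0.0399 was the 11th smallest of the 268, and the limma adjusted p was 0.706. The share of tested miRNAs with an unadjusted p under 0.05 was 2.61% for lower levels and 2.99% for higher ones.

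**Figure D1:**
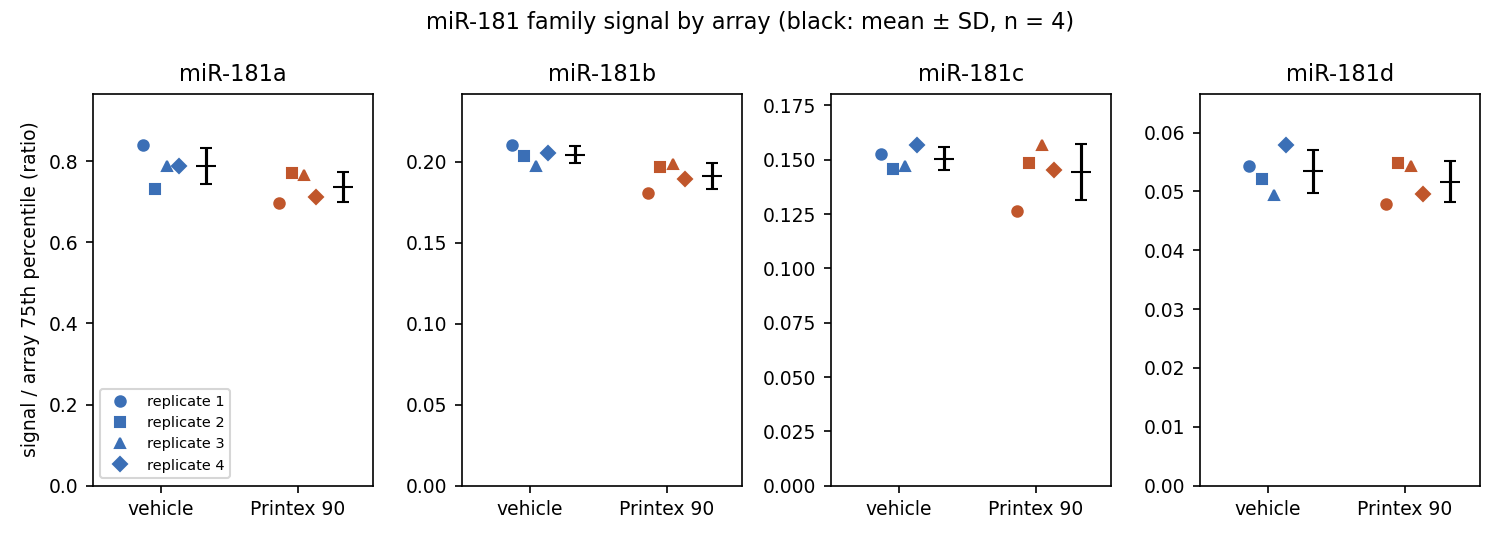
Relative signal of each miR-181 member on each array (vertical axis, ratio to the array's 75th percentile, starting at 0) for vehicle control (blue) and Printex 90 (orange), with symbols for the replicate numbers and the mean ± SD of 4 arrays in black. The groups overlap in all 4 panels, and Printex 90 replicate 1 is the lowest array in each.

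miR-181c, from the locus on chromosome 8, gave 0.153, 0.146, 0.147 and 0.157 in controls and 0.127, 0.148, 0.157 and 0.145 after Printex 90. Its highest value, 0.157, was on Printex 90 replicate 3 and its lowest on Printex 90 replicate 1, so that the exposed group spanned the controls on both sides. The means were 0.151 ± 0.00522 and 0.144 ± 0.0128 (SD, n = 4 each). The log2 difference was -0.064 (SE 0.068, limma adjusted p = 0.767), a ratio of 0.956 with an unadjusted 95% interval of 0.856 to 1.07.

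miR-181d, its neighbour, gave 0.0543, 0.0522, 0.0493 and 0.0579 in controls and 0.0479, 0.0548, 0.0544 and 0.0496 after Printex 90. The groups lay over each other, with 1 Printex 90 array below every control. The means were 0.0534 ± 0.00362 and 0.0517 ± 0.00346 (SD, n = 4 each), not far above the floor of 0.0388 at which low signals were set. The log2 difference was -0.048 (SE 0.066, limma adjusted p = 0.776), a ratio of 0.967 with an unadjusted 95% interval of 0.868 to 1.08.

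**Figure D2:**
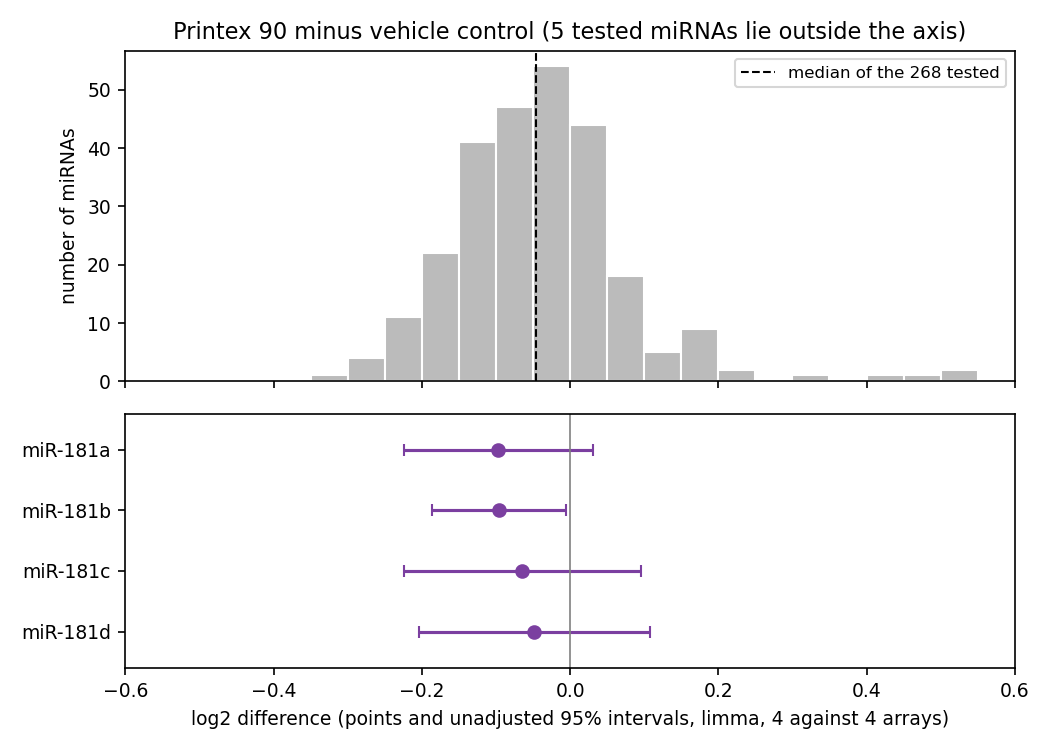
Top, the number of tested miRNAs by log2 difference, Printex 90 minus vehicle control, with the median of the 268 tested (-0.046) as a dashed line. Bottom, the log2 difference of each member with its unadjusted 95% interval, which spans 0 for miR-181a, miR-181c and miR-181d and ends just below 0 for miR-181b.

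The direction of the family depended on how the arrays were scaled and corrected. All 4 members were lower under 20 of 26 alternative settings. In 4 settings 3 of 4 were lower: the 75th percentile of all mouse miRNAs as the scale, quantile normalization, the brightest probe alone, and a doubled floor. With the brightest probe the scale was derived again from those probes. The doubled floor put miR-181d at the floor on all arrays. With the median as the scale 2 of 4 were lower, and with normexp background correction 1 of 4, miR-181a (-0.028). Over the 26 settings the share of all tested miRNAs that were lower ran from 29.9% to 83.2%, against 65.7% here. The family median minus the median of all tested was -0.080 to -0.0035, below 0 in each. No member had a limma adjusted p below 0.499 under any of them.

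**Figure D3:**
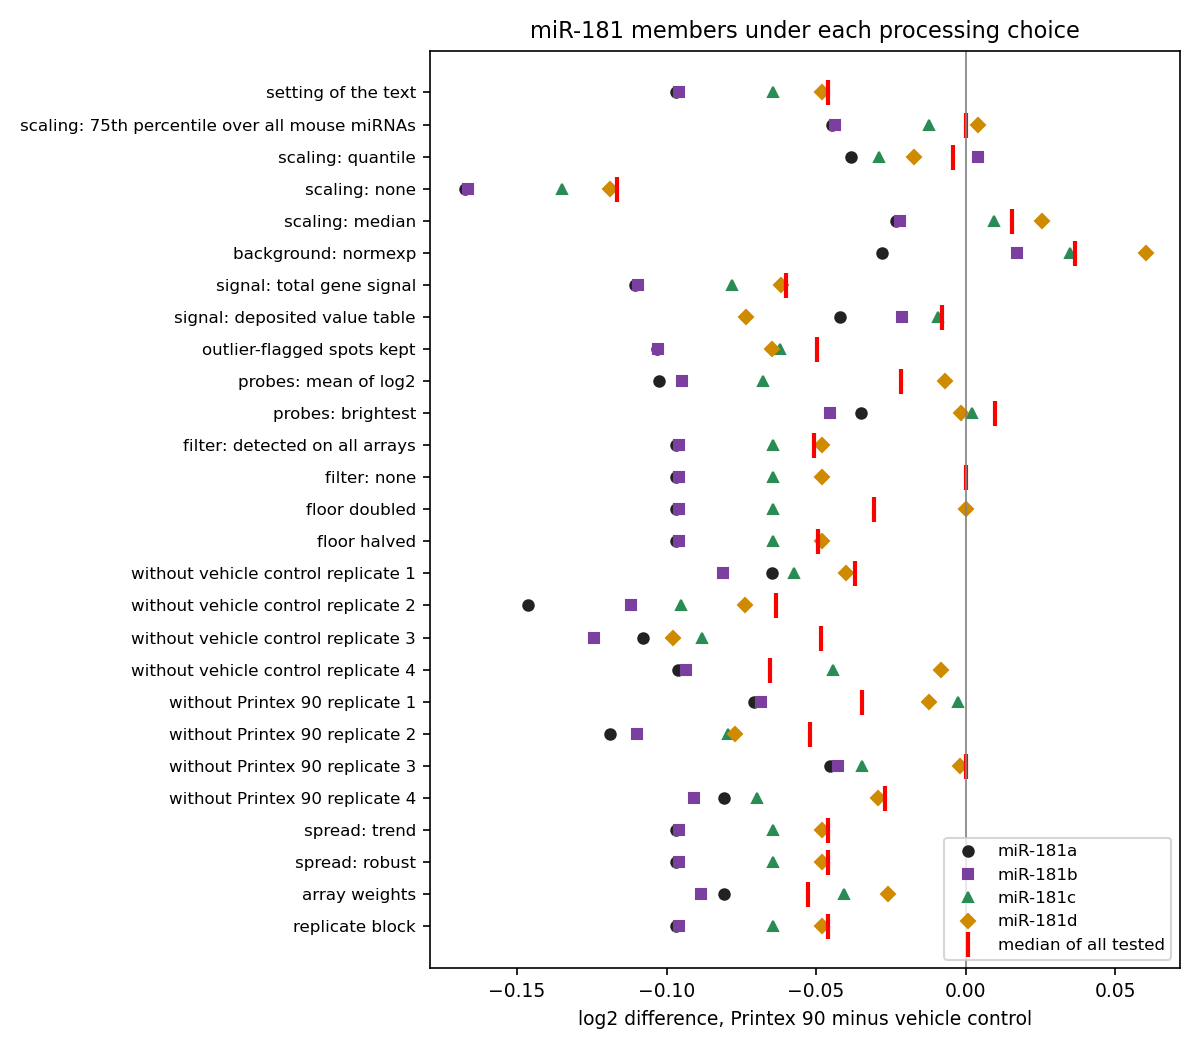
Log2 difference of each member, Printex 90 minus vehicle control (horizontal axis), under the setting of the text and each of 26 alternatives (rows), with the median of all tested miRNAs as a red bar. The red bar runs from -0.117 without scaling to 0.036 with normexp, and miR-181a lies below 0 under all 26 alternatives.

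Each guide was read by 2 probes of 10 spots each. Both probes of miR-181a, miR-181b and miR-181c were well above background on all 8 arrays, as was 1 probe of miR-181d, whose other probe was so on 2. The log2 differences were -0.11 and -0.090 for miR-181a, -0.089 and -0.10 for miR-181b, -0.053 and -0.083 for miR-181c and, for the miR-181d probe that was above background throughout, -0.056. All of these share a sign. The groups did not overlap for 1 probe of miR-181b, with all Printex 90 arrays lower (0.117 ± 0.00376 against 0.125 ± 0.00406, SD, n = 4 each). Of the 495 single mouse probes well above background on all arrays, 0.808% were lower in this way. The spots of a miR-181a probe varied by 1.60% to 7.56% (coefficient of variation) within an array, and those of that miR-181d probe by 3.80% to 15.6%.

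The members differed little from array to array. Between the highest and the lowest of the 8 arrays the signal ranged by 1.21-fold for miR-181a, 1.17-fold for miR-181b, 1.24-fold for miR-181c and 1.21-fold for miR-181d. The SD of log2 signal within groups was 0.078, 0.052, 0.10 and 0.097 for members a to d, against a median of 0.12 over all tested, and 7.84% of the tested miRNAs varied less than miR-181b. Printex 90 replicate 1 was the lowest of the 8 arrays for all 4 members. Its deviation from the mean of the 8 arrays was -0.13 on the log2 scale for miR-181a, miR-181b and miR-181d and -0.22 for miR-181c.

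**Figure D4:**
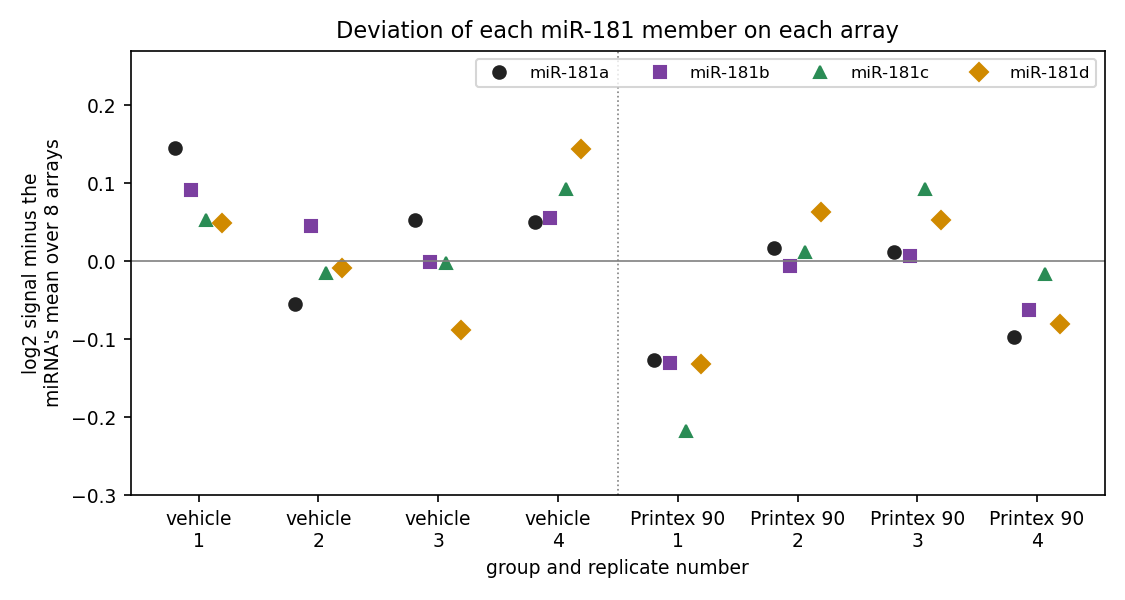
Log2 signal of each member minus its own mean over the 8 arrays (vertical axis), by group and replicate (horizontal axis). On Printex 90 replicate 1 all 4 members lie between -0.22 and -0.13, and on the other arrays they lie between -0.097 and 0.14.

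That array also stood apart in muscle miRNAs. The summed relative signal of miR-1, miR-133a, miR-133b and miR-206 was 3.05 on Printex 90 replicate 1, 0.313 to 0.441 on the other Printex 90 arrays and 0.380 to 1.91 on the controls. The summed signal of 11 endothelial miRNAs was lowest on the same array, at 75.8, against 80.3 to 91.3 on the others. The part of either in the miR-181 values was not tested. Without Printex 90 replicate 1 the log2 differences were -0.071 for miR-181a, -0.068 for miR-181b, -0.0024 for miR-181c and -0.012 for miR-181d. Their median was -0.040, against -0.035 over all tested. Without Printex 90 replicate 3, the array with the lowest 75th percentile (580.8), they were -0.045, -0.043, -0.035 and -0.0019. Their median was -0.039, against 0 over all tested. These values come from a reference set derived again without that array, 244 miRNAs in place of 240. With the scale of all 8 arrays kept, a choice made after seeing the data, they were -0.117, -0.114, -0.106 and -0.074, with a median of -0.110 against -0.065 over all tested, so leaving out that array moved the members in opposite directions under these scales. The smallest limma adjusted p of a member was then 0.380 (miR-181b). Without Printex 90 replicate 1 or vehicle control replicate 1 the members' values were the same under both scales. In these bulk lungs fewer cells of a type and less RNA per cell cannot be told apart.

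The ratio of 2 members on the same array does not depend on a scaling factor between arrays, and it asks whether members moved unequally. The 6 pairs were compared with exact 2-sided permutation tests over the 70 assignments, whose smallest possible p is 0.0286. The groups overlapped in all 6 pairs and none passed (adjusted p = 0.814 to 1 over the pairs by the exact permutation test).

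The pair miR-181a and miR-181b, made together on chromosomes 1 and 2, had the smallest difference. Its log2 ratio was 1.94 ± 0.072 in controls and 1.94 ± 0.024 after Printex 90 (SD, n = 4 each), a difference of -0.0010 (SE 0.038, exact permutation p = 1). The pair miR-181c and miR-181d of chromosome 8 had log2 ratios of 1.50 ± 0.057 and 1.48 ± 0.072 (SD, n = 4 each). Their difference was -0.016 (SE 0.046, exact permutation p = 0.771). These ratios compare probes as well as RNAs, so only their change between groups is read, not their level.

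Across loci the differences were larger in this setting, but none was much above its SE. They were -0.032 (SE 0.053) for miR-181a over miR-181c, -0.049 (SE 0.057) for miR-181a over miR-181d, -0.031 (SE 0.043) for miR-181b over miR-181c and -0.048 (SE 0.043) for miR-181b over miR-181d, and none passed. Over the 21 alternatives run for ratios, the same-locus differences ran from -0.045 to 0.017 (a over b) and from -0.064 to 0.064 (c over d). The -0.064 came with the doubled floor, where miR-181d was at the floor on all arrays and only miR-181c varied. The 0.064 came from the deposited value table. The pairs are therefore not ranked by locus. Over the 8 arrays the log2 ratio of miR-181a to miR-181b had an SD of 0.050, below the SD of either alone (0.089 and 0.070). All 6 pairs shared this: the SD of the ratio was 0.050 to 0.079 and below that of either member. The pairs of one locus did not stand apart, since the ratio of miR-181b to miR-181c, from different loci, had an SD of 0.059 and that of miR-181c to miR-181d 0.061. The 8 points share their slide and the array's own signal level.

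**Figure D5:**
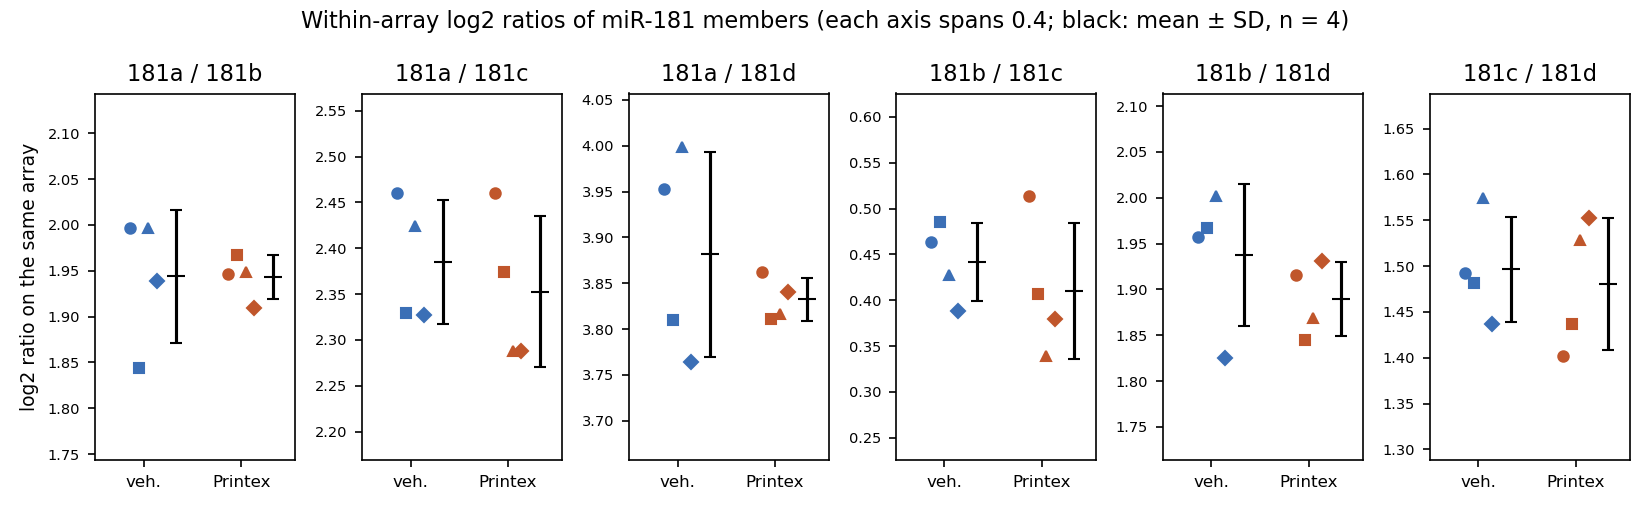
Log2 ratio of each pair of members on the same array (vertical axes, each spanning 0.4 log2 units around its own mean) for vehicle control (blue) and Printex 90 (orange), with the mean ± SD of 4 arrays in black. The groups overlap in all 6 panels.

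The passenger strands, which are usually degraded after the guide is loaded, were at or near background. miR-181a-1*, from the hairpin on chromosome 1, was detected on 3 arrays (vehicle control replicates 1 and 4 and Printex 90 replicate 2), through 1 of its 2 probes. Its relative signals were 0.0314 to 0.0344 in controls and 0.0288 to 0.0342 after Printex 90, all under the floor. It was not tested, since testing needed detection on 4 arrays, and no ratio is given. miR-181a-2*, from the hairpin on chromosome 2, was not well above background on any array with any of its 4 probes of 5 spots. These passengers differ in sequence, as the 2 hairpins above show, whereas the guide miR-181a cannot be assigned to either locus from its own signal.

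Marker miRNAs of the cells in which the family is known were read on the same scale. The 8 leukocyte miRNAs were all tested, and none passed. They split into 4 above and 4 below control, and their median difference was 0.081 (log2). The summed leukocyte signal was 8.53 to 10.72 in controls and 9.49 to 10.4 after Printex 90, and its part in the miR-181 values was not tested. The 2 with the smallest p were miR-146b (0.80, SE 0.20, limma adjusted p = 0.702), which dampens Toll-like receptor signalling, and miR-155 of activated leukocytes (0.50, SE 0.19, limma adjusted p = 0.706). The brightest of the list, miR-142-3p of white blood cells, measured 4.37 ± 0.332 after Printex 90 against 4.43 ± 0.418 in controls (SD, n = 4 each). The counts moved with the scaling, to 1 lower and 7 higher with the median as the scale.

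All 11 endothelial miRNAs on the list were tested and all 11 were lower, as were 65.7% of all tested, and 0 passed the threshold. Their median log2 difference was -0.082, where it was -0.080 for the family and -0.046 over all tested. The list holds both strands of miR-126, so its entries are not independent. The summed signal of the list was 83.9 to 91.3 in controls and 75.8 to 91.0 after Printex 90. Much of it was the brightest member, miR-126-3p, at 40.6 ± 2.62 and 37.9 ± 3.53 (SD, n = 4 each). The 2 with the smallest p were miR-27b (-0.064, SE 0.031) and miR-126-5p, the partner strand of miR-126-3p (-0.20, SE 0.11), each with a limma adjusted p of 0.706. The signs of this list moved with the scaling too, to 7 lower and 4 higher with the median as the scale.

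Of 11 miRNAs linked to NF-kB and inflammation, 9 were tested, of which 7 were higher and 2 lower (median 0.18), or 5 and 4 without scaling, and 0 passed. miR-21, induced in inflamed and injured tissue, had the smallest p (0.49, SE 0.086, limma adjusted p = 0.203), and miR-146b, already given, the next. The summed signal of the 9 was 21.6 to 24.2 in controls and 27.1 to 30.2 after Printex 90, with no overlap. Among all tested miRNAs taken singly, 2.24% had groups apart in either direction. The sum largely followed its brightest member, miR-21, which measured 12.8 ± 0.932 and 18.0 ± 1.79 (SD, n = 4 each). The part of this sum in the miR-181 values was not tested. miR-146a, miR-146b, miR-155 and miR-223 of this list are on the leukocyte list too. Of 9 epithelial miRNAs 8 were tested, 7 of them higher and 1 lower (median 0.056), or 3 and 5 without scaling, with miR-31 at 0.20 (SE 0.067) and miR-141 at 0.097 (SE 0.062) the smallest p, and 0 passed. The red blood cell miRNAs miR-451, miR-144 and miR-486 were all lower (median -0.25, 0 passed), but without vehicle control replicate 1 they were 2 lower and 1 higher with a median of -0.029. In the full set miR-486 was at -0.25 (SE 0.23) and miR-144 at -0.27 (SE 0.25). Their summed signal was highest on vehicle control replicate 1 (46.9, the other arrays 19.7 to 30.6). miR-181a and miR-181b were also highest on that array, at 0.840 and 0.211, and the part of red blood cell RNA in this was not tested. Without vehicle control replicate 1 their log2 differences were -0.065 and -0.081. The 4 tested muscle miRNAs had a median of -0.74, which was -1.52 without Printex 90 replicate 1, -0.37 without Printex 90 replicate 2 and -0.23 with normexp, with miR-206 at -0.30 (SE 0.13) and miR-1 at -0.77 (SE 0.91), and the liver miRNA miR-122 was at 0.44 (SE 0.99).

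The miRNAs whose profile over the 8 arrays was most like each member were found by the root-mean-square difference of log2 signals, after each miRNA was centred on its mean, among the 264 tested miRNAs outside the family. The nearest to miR-181a were miR-30e* (0.030), miR-374 (0.034) and miR-26b (0.037), where the median over the 264 was 0.13. For miR-181b they were miR-326 (0.028), miR-27b (0.028) and miR-30e (0.035). For miR-181c they were miR-497 (0.026), miR-195 (0.032) and miR-15a (0.035), and for miR-181d miR-221 (0.035), miR-23b (0.041) and miR-22* (0.041). In each case these were nearer than any other member, but they were picked as the nearest of 264, so this does not show the members unlike. The nearest other member ranked 8th for miR-181a, 9th for miR-181b, 16th for miR-181c and 10th for miR-181d. Distances within the family ran from 0.047 (miR-181a and miR-181b) to 0.074 (miR-181a and miR-181d). The medians over the 264 were 0.13 to 0.15. This distance is also short between miRNAs that vary little, as the members did, so it does not show that their profiles were shared. The farthest member by rank was miR-181d, 61st for miR-181a. The 12 miRNAs named from outside the family had log2 differences of -0.13 (miR-30e*) to 0.013 (miR-22*), and none had a limma adjusted p below 0.706.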

How the data were processed

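Lung RNA of 4 vehicle control and 4 Printex 90 samples was labelled with Cy3 and read on one-colour arrays of 13000 miRNA spots (1857 probes). Per the file headers, the deposited spot intensities were made with Agilent Feature Extraction 10.7.3.1, which subtracted background within each array and did not normalize between arrays. The deposited table of log2 values was normalized by the authors with a method not given in the sources used here, and served only as an alternative.

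Control spots and outlier-flagged spots (2.25% to 2.76% per array) were left out. Spots of a probe were averaged, and probes of a miRNA summed. The scale of an array was the 75th percentile of the 240 mouse miRNAs that all 8 arrays detected. Signals were then floored at 0.0388 (the 5th percentile of detected signals), and log2 was taken. The 268 mouse miRNAs with detection on 4 or more arrays were fitted together in limma 3.58.1 (R 4.3.3, lmFit and eBayes, no replicate block, Benjamini-Hochberg adjustment over all 268). The test was also run on simulated data, with results not used here. Precision is limited by the number of arrays, and the median half-width of a 95% interval was 0.19 (log2). No spot was saturated, and no pair of arrays held identical values.

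The miRNAs named are the members and their passenger strands, for each member the 3 tested miRNAs nearest in profile, and for each marker list the 2 with the smallest p, besides the brightest or defining markers. The members and lists were chosen with earlier results of these data known. Alternatives covered scaling, background, signal column, probe summary, detection filter, floor, spread model, array weights, each array left out (reference set and floor derived again) and the replicate block. Normexp was run on the spot and background median signals, with an offset of 50.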

Additional observations from a re-analysis of the deposited data

Results flagged for a closer look

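Within groups of 4 arrays, a lowest or highest value was looked for whose gap to the next, as a share of the group's range, exceeded Dixon's 95% critical value, which chance gives in about 1 of 20 groups. No value of miR-181a, miR-181b, miR-181c or miR-181d did so. Of the 66 groups checked, 2 had one, both in miRNAs outside the family. miR-26b, one of the nearest in profile to miR-181a, had a low log2 signal of 2.43 on vehicle control replicate 2, where the next control was at 2.54. The liver miRNA miR-122 was at the floor, -4.69, on Printex 90 replicate 3, where the next was at -1.61.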

How the results depend on the processing

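Of the 4 members, miR-181a kept its direction in all 26 alternatives, and no member passed the threshold in any. The log2 differences (Printex 90 minus vehicle) given here are those that changed sign. With the 75th percentile of all mouse miRNAs they were 0.0042 for miR-181d, 0.0096 for miR-15a, 0.021 for miR-221 and 0.022 for miR-23b. With quantile normalization they were 0.0042 for miR-181b, 0.0020 for miR-15a, 0.036 for miR-195, 0.048 for miR-221, 0.0082 for miR-23b and 0.0017 for miR-374. The ratios over miR-181c and miR-181d of miR-181b then were 0.033 and 0.022. With the median as the scale they were 0.0094 for miR-181c, 0.026 for miR-181d, 0.031 for miR-15a, 0.042 for miR-221, 0.044 for miR-23b, 0.010 for miR-27b, 0.0012 for miR-30e, 0.011 for miR-374 and 0.017 for miR-497, and 1 miRNA passed, miR-21 (0.56). With normexp they were 0.017 for miR-181b, 0.035 for miR-181c, 0.060 for miR-181d, 0.030 for miR-221, 0.0068 for miR-23b, 0.022 for miR-326 and 0.025 for miR-374. With the brightest probe they were 0.0021 for miR-181c, 0.014 for miR-15a, 0.045 for miR-221, 0.043 for miR-23b, 0.0037 for miR-27b, 0.014 for miR-374 and 0.011 for miR-497, and the ratios of a to b and of c to d were 0.010 and 0.0038. The deposited value table gave 0.076 for miR-126-5p and 0.0056 for miR-15a, and ratios over miR-181d of 0.032 (a), 0.052 (b) and 0.064 (c). miR-22* was at -0.058 without scaling and -0.0010 with the total gene signal, and the ratio of c to d at 0.0027 with outlier-flagged spots kept. Where a setting only changes the single factor that scales each array, all miRNAs above the floor move by the same amount. The brightest-probe setting also derived that factor again from those probes. Under the main scale the brighter probe of miR-181c was at -0.053. The cause of the changes was not otherwise tested.

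Leaving out 1 array in turn gave 0 to 2 miRNAs past the threshold, the 2 being miR-21 and miR-146b without Printex 90 replicate 3. The log2 differences that changed sign ran from -0.19 to 1.32 for miR-122, -0.025 to 0.070 for miR-22*, -0.079 to 0.027 for miR-221, -0.072 to 0.014 for miR-23b and -0.084 to 0.0029 for miR-497. The ratio of a to b ran from -0.034 to 0.017 and that of c to d from -0.040 to 0.0097. With the scale of all 8 arrays kept, an alternative added after seeing the data, 0 to 3 passed, the 3 (without Printex 90 replicate 3) being miR-21, miR-146b and, named after its value was seen, miR-135b (1.70). That alternative is given only for the members and the count. All 4 members stayed below 0 without each array under both scales.

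Replicate numbers also give the position along the slide row. The deviations of same-numbered arrays correlated at -0.14, -0.60, -0.38 and 0.75, and only the arrays numbered 4 were each other's best match. The number was not used as a pairing in the main fit, and the part of the shared position was not tested. With the replicate block 0 miRNAs passed (12 with an unadjusted p under 0.05, against 15), and the smallest limma adjusted p of a member was 0.744.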
